A study of Mus musculus with 11 samples.

Results

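The genes described here encode the nuclear subunits of the mitochondrial respiratory chain and of the ATP synthase, measured in B cell lymphomas of E-mu-BRD2 mice. Members were taken by symbol from probe sets that the platform annotation pairs with 1 gene: Ndufa, Ndufb, Ndufc, Ndufs and Ndufv genes for complex I, Sdh genes for complex II, Uqcr genes and Cyc1 for complex III, Cox4 to Cox8 genes for complex IV, Atp5 genes for complex V, and Cycs for cytochrome c. Where a gene had several such probe sets, the one with the highest mean signal over the arrays stood for it. The rule gave 81 of the 12393 genes that the annotation names in this way: 34 of complex I, 4 of complex II, 9 of complex III, 16 of complex IV, 17 of complex V, and Cycs. Of these, 78 passed the filter on dim probe sets described below, and Cox4i2, Cox7a1 and Cox8b did not.

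The study divided sporadic lymphomas by disease severity, and 5 lymphomas of the transitional class are compared here with 6 of the marginal class, with 1 array for each lymphoma. Every animal carried the E-mu-BRD2 transgene, in which the immunoglobulin heavy chain enhancer directs BRD2, a bromodomain protein that binds acetylated histones, to B cells, and every animal was of the FVB background. Immunoglobulin clonality was oligoclonal in all 11 records. The sources used here give neither age nor the tissue sampled, and the further severity class and the B cell samples that the design mentions are not analysed here.

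Among transitional animals, all 5 had failure to nest as the recorded sign, and the spleen was graded severe in transitional 1 and 2, mild in transitional 3 and moderately severe in transitional 4 and 5. Among marginal animals, spleen grade was moderate for marginal 5 and 6, mild for marginal 2, 3 and 4, and marginal for marginal 1. The recorded sign was failure to nest in marginal 2 and 3, a tumour of the neck, leg or haunch in marginal 1, 4 and 5, and paralysis in marginal 6. Flow cytometry was recorded for marginal 6 alone, as B220+, CD5+, CD11b+.

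The respiratory chain passes electrons from NADH (at complex I) and succinate (at complex II) through complex III and the small carrier cytochrome c to oxygen at complex IV, and the proton gradient built on the way drives ATP synthesis at complex V. The complexes I, III, IV and V are built from subunits of both genomes, and this array annotation named none of the 13 mitochondrially encoded subunits (0 of 13 symbols), so that only nuclear transcripts are described. Some complex IV subunits have isoforms known for one tissue, such as muscle or testis, and dividing lymphocytes use the ubiquitous forms.

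Signals are in the arbitrary units of the deposited array values, and a class difference is the mean log2(signal + 16) of transitional lymphomas less that of marginal ones, where the added 16 makes differences of dim probe sets smaller. A gene counted as higher or lower in a class is so by this log2 mean, and a fold is taken from it. The 2% trimmed mean of the signals was 500.2 on every array, so levels are relative to the whole array. The upper 60% of probe sets by mean were tested (13576 probe sets), and a call is an adjusted p under 0.05 over all of them in limma.

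The arrays differed in the cell types they showed, and transitional 4 and 5 stood apart in B cell, erythroid and proliferation markers. The summed signal of the 11 B cell markers on the array was 10904 on transitional 4 and 7732 on transitional 5, against 48091 to 75655 on the other transitional arrays and 28839 to 98617 on the marginal arrays. The summed signal of the 16 erythroid markers ran from 3973 to 182209 on transitional arrays and from 38082 to 117322 on marginal arrays, and the highest 2 were transitional 4 (182209) and transitional 5 (145802). Proliferation markers summed to 97683 and 86492 on those arrays and to 23388 to 61133 on all others. Other lists varied too. T cell markers summed to 28044 on transitional 1 and 224 on transitional 5, against 3071 to 10362 on the marginal arrays. Myeloid (granulocyte and macrophage) markers ran from 13138 on transitional 1 to 232997 on marginal 1. Stroma and vessel markers stood at 13234 on transitional 2, against 575 to 1524 on the marginal arrays. None of these markers was at 0 on any array. In such bulk samples fewer cells of a type and less RNA per cell cannot be told apart. The 3′ to 5′ signal ratio of the Gapdh control, a measure of RNA integrity, was 0.635 to 0.721 in transitional and 0.639 to 0.839 in marginal lymphomas, with the highest on marginal 5, and that of Actb was 1.107 to 1.441 in transitional and 1.116 to 1.333 in marginal lymphomas, with the highest on transitional 3.

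The first question was whether the subunit genes differed between the severity classes. No member passed the test between classes, and neither did any other probe set (0 of 13576, or 0% of all tested, with 129 higher and 325 lower at an unadjusted p under 0.05 in limma). The members lay to one side nevertheless: 67 of the 78 tested were higher in transitional lymphomas and 11 lower, a share of 85.9% higher against 42.4% of all tested probe sets (57.6% were lower). Their median log2 difference was 0.20, against −0.06 over all tested probe sets and −0.01 over the 1052 genes whose brightest probe set had a mean signal of at least 2000. Such differences are small beside the spread between arrays, and 3 members had an unadjusted p under 0.05, all of them higher (0.95% of all probe sets were higher and 2.39% lower at that level).

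The size of the members' difference depended on the arrays of the moderately severe grade, while most members stayed positive without them. Without transitional 4 and 5, the difference was positive in 55 of 78 members (70.5%) with a median of 0.05, against 52.2% and 0.02 over all probe sets tested. With the erythroid score, the mean log2 level of 15 erythroid markers, as a covariate, 68 members were higher in transitional lymphomas, by a median of 0.25, and none passed the test (1.88% of all probe sets did, and 20 members were higher at an unadjusted p under 0.05, as were 6.68% of all). The part that B cell, T cell and proliferation markers have in the members' difference was not tested.

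In the fit of class alone, complexes I, II, III and V had similar medians and complex IV a lower one. The median log2 difference was 0.24 for complex I (31 of 34 higher), 0.17 for complex II (4 of 4), 0.24 for complex III (9 of 9), 0.10 for complex IV (8 of 13) and 0.21 for complex V (14 of 17). Without transitional 4 and 5 these medians were 0.09, 0.07, 0.04, −0.00 and 0.09, in the same order of complexes. Ndufa4 was counted in complex I by its symbol, although it is now known as a subunit of complex IV, and with it moved the median of complex IV was 0.11.

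**Figure D1:**
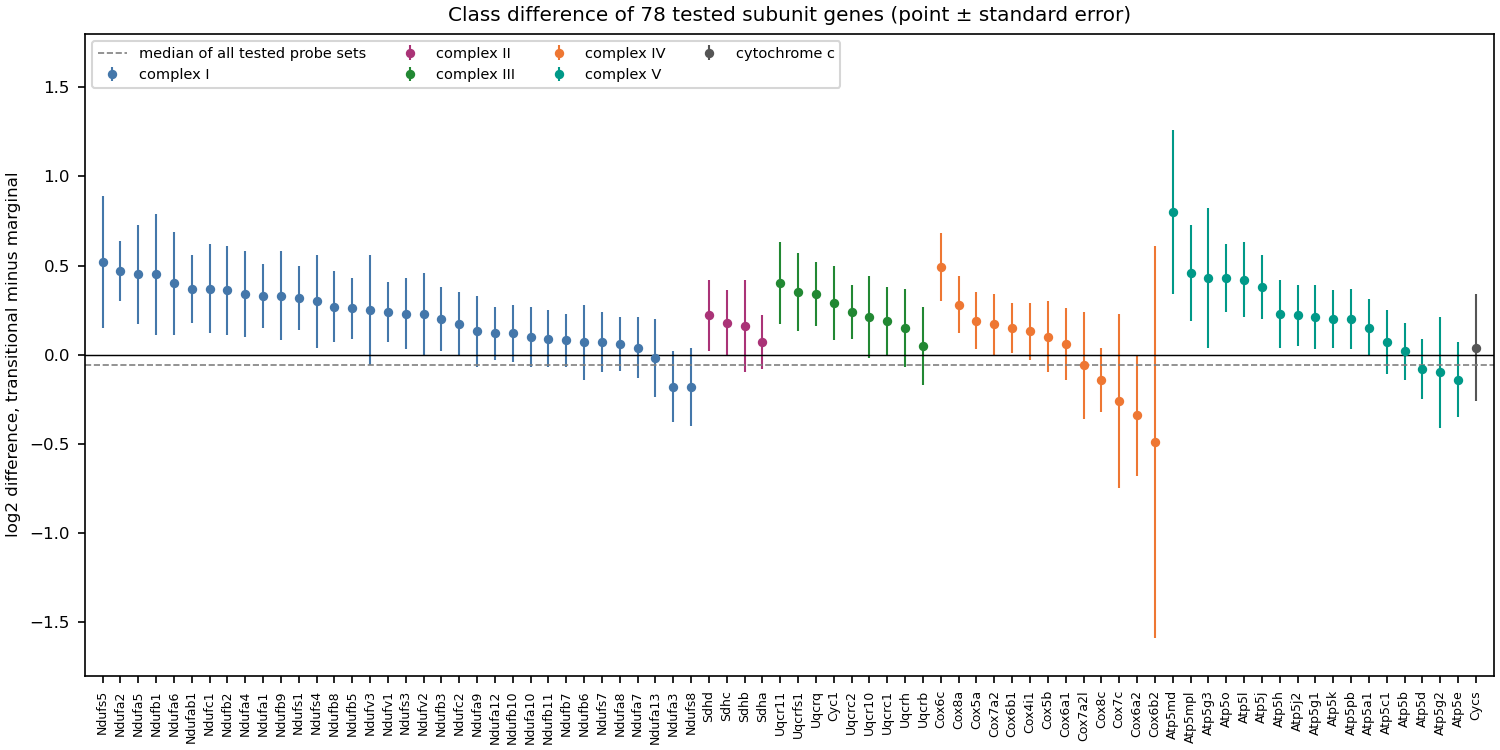
Log2 difference between transitional (n = 5) and marginal (n = 6) lymphomas for each of the 78 tested subunit genes on the vertical axis, with genes on the horizontal axis grouped by complex. Points are limma estimates and bars ± 1 standard error, the dashed line is the median of all tested probe sets (−0.06), and 67 points lie above 0.

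In complex I, the NADH dehydrogenase, the gene with the smallest p was Ndufa2, an accessory subunit of the arm that reaches into the mitochondrial matrix. Its signal was 4822, 4871, 4393, 4321 and 4520 on transitional 1 to 5, against a lowest of 2264, a median of 3290 and a highest of 4188 on the marginal arrays. Every transitional array was above every marginal array, which held for 1 of the 78 tested members and for 0.103% of all tested probe sets, and no member had the reverse order (0.125% of all). The mean was 4585 ± 249 in transitional (SD, n = 5) and 3371 ± 686 in marginal lymphomas (SD, n = 6), and the log2 difference of 0.47 (SE 0.17), a fold of 1.38, did not pass the limma test (adjusted p = 0.999). Its probe set belongs to a design that can bind related transcripts, as do those of the other members with such a suffix (11 of type s and 6 of type x among the 81).

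The next 3 genes of complex I by p were accessory or core subunits with higher means that rested on fewer arrays. Ndufab1, the mitochondrial acyl carrier protein, had 2106, 2022, 2372, 2973 and 3700 on transitional 1 to 5, against 1591, 1965 and 2524 as the lowest, median and highest of the marginal arrays. Only transitional 4 and 5 exceeded all marginal arrays, and the log2 difference was 0.37 (SE 0.19). Ndufs1, the large iron-sulphur subunit that receives electrons early in the complex, had 1137, 1105, 1100, 1474 and 1756 on transitional 1 to 5, against a lowest of 905, a median of 1028 and a highest of 1234 on the marginal arrays. Again transitional 4 and 5 alone were above the marginal range, and the log2 difference was 0.32 (SE 0.18). Ndufa1, a small accessory subunit of the membrane arm, had 10521, 6720, 7841, 7424 and 8879 on transitional 1 to 5, against 5019, 6539 and 8854 as the lowest, median and highest marginal values, so that transitional 1 and 5 were above them (log2 difference 0.33, SE 0.18).

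The spread between arrays within complex I ran from narrow to wide. Ndufa8, an accessory subunit facing the intermembrane space, had a coefficient of variation of 10.9% over the 11 arrays, with 2035 to 2496 in transitional and 1946 to 2770 in marginal lymphomas. Ndufs5, another such subunit, varied by 79.5%, because its signal was 1072 on transitional 4 and between 188 and 309 on all other arrays.

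In complex II, succinate dehydrogenase, which also belongs to the citric acid cycle, all 4 subunits had a slightly higher mean in transitional lymphomas, and the classes overlapped for each. Sdha, the flavoprotein that oxidises succinate, had 3391, 2719, 2625, 3211 and 3643 on transitional 1 to 5, against 2732 to 3366 in marginal lymphomas. The log2 difference of Sdha was 0.07 (SE 0.15) on this probe set and −0.06 on its other tested one. Sdhb, the iron-sulphur subunit, had 3628, 2550, 4960, 3991 and 3968 on transitional 1 to 5, against a lowest of 1669 on marginal 5 and a highest of 4409. Its log2 difference was 0.16 (SE 0.26), and −0.04 without marginal 5. The membrane anchors Sdhc and Sdhd had log2 differences of 0.18 (SE 0.18) and 0.22 (SE 0.20), and Sdhd had 1667, 1794, 1713, 2223 and 2441 on transitional 1 to 5, against 1171 to 2144 on the marginal arrays.

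In complex III, which passes electrons from ubiquinol to cytochrome c, transitional 4 and 5 carried the higher means of most of the genes named. Uqcr11, a small accessory subunit, had 2180, 2140, 2916, 3929 and 5023 on transitional 1 to 5, against 1908, 2307 and 2692 as the lowest, median and highest of the marginal arrays. Transitional 1 and 2 lay within the marginal range and the other 3 above it, and the log2 difference was 0.40 (SE 0.23). Uqcrfs1, the Rieske iron-sulphur protein, had 5005 and 4857 on transitional 4 and 5, above the marginal highest of 3765, while transitional 1, 2 and 3 had 3015, 2914 and 2600 (log2 difference 0.35, SE 0.22).

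Uqcrq, a small subunit of complex III, had 2496, 2439, 2909, 3237 and 4172 on transitional 1 to 5, against a marginal range of 1862 to 2746 (log2 difference 0.34, SE 0.18). Uqcrc2, a core protein of the matrix side, differed from this pattern. It had 5284, 4425, 6382, 4594 and 5203 on transitional 1 to 5, against a lowest of 3897, a median of 4220 and a highest of 4990 on the marginal arrays, so that transitional 1, 3 and 5 were above them (log2 difference 0.24, SE 0.15). Cycs, the electron carrier between complexes III and IV, had 3968, 6312, 7500, 10417 and 15596 on transitional 1 to 5, against 6380, 7437 and 10745 as the lowest, median and highest marginal values. On this probe set the transitional arrays held both the lowest and the highest Cycs signal, and the log2 difference was 0.04 (SE 0.30). The other tested probe sets of Cycs had log2 differences of 0.56 (SE 0.25) and 0.19 (SE 0.23).

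In complex IV, cytochrome c oxidase, 8 of the 9 ubiquitous subunits tested had positive log2 differences. The exception was Cox7c, whose brightest probe set was dim, with 42.3 to 240 in transitional and 65.5 to 400 in marginal lymphomas (log2 difference −0.26, SE 0.49). Estimates were also negative for the tissue isoforms Cox6a2, Cox6b2 and Cox8c and for Cox7a2l, each with an SE of similar or larger size. Cox6c, an accessory subunit, had 10726, 12000, 22650, 13481 and 14532 on transitional 1 to 5, against a lowest of 8814, a median of 9725 and a highest of 12731 on the marginal arrays. Transitional 3, 4 and 5 were above every marginal array, and the log2 difference was 0.49 (a fold of 1.40, SE of the log2 difference 0.19, unadjusted p = 0.0268, adjusted p = 0.999 in limma). Cox8a, the ubiquitous form of subunit VIII, had 2675, 3156, 2782, 3663 and 3911 on transitional 1 to 5, against 2302 to 3101 on the marginal arrays (log2 difference 0.28, SE 0.16). Cox5a and Cox6b1, which face the matrix and the intermembrane space, had log2 differences of 0.19 (SE 0.16) and 0.15 (SE 0.14).

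The isoforms of complex IV known for muscle, lung or testis were given by their signal. Cox8b and Cox7a1, forms of heart and skeletal muscle, had 2.6 to 12.5 and 7.8 to 65.3 in transitional lymphomas, against 2.8 to 10.2 and 23.7 to 53.6 in marginal lymphomas, and were not tested. Cox4i2, known from lung, had 10.3 to 52.0 in transitional and 40.1 to 70.2 in marginal lymphomas and was not tested either (the filter lay at a signal of 62.7). Cox6a2, the muscle form of subunit VIa, had 45.5 to 106 in transitional lymphomas, against 55.4 to 241 in marginal lymphomas (log2 difference −0.34, SE 0.34). The testis form Cox8c had 176 to 233 in transitional and 178 to 290 in marginal lymphomas (log2 difference −0.14, SE 0.18). Cox7a2l, a relative of subunit VIIa linked to supercomplexes, had 2546 to 6751 in transitional and 3110 to 7782 in marginal lymphomas (log2 difference −0.06, SE 0.30). Its tested probe sets disagreed in direction, from −0.10 to 0.07. Of the 12 skeletal muscle markers on the array, 2 passed the filter, and their sum of 12 was 421 to 540 in transitional and 377 to 647 in marginal lymphomas.

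In complex V, the ATP synthase, the genes with the smallest p encode parts of the stalk and of the membrane sector. Atp5o, the subunit that joins the stator stalk to the catalytic head (OSCP), had 6005, 5379, 5582, 4571 and 4482 on transitional 1 to 5, against 2856, 3565 and 5328 as the lowest, median and highest of the marginal arrays. On this probe set transitional 1, 2 and 3 were above every marginal array, and transitional 4 and 5 were within their range. A second, dimmer probe set of Atp5o had another order, with 1196.1, 996.1, 888.2, 2086.5 and 2209.6 on transitional 1 to 5. Its marginal range was 939.8 to 1377.0, so that transitional 4 and 5 alone were above it (log2 difference 0.24, SE 0.26). The log2 difference of the brightest probe set was 0.43 (a fold of 1.35, SE of the log2 difference 0.19, unadjusted p = 0.0452, adjusted p = 0.999 in limma).

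Atp5j, coupling factor 6 of the stalk, had 4003, 3580, 4783, 3812 and 4731 on transitional 1 to 5, against a lowest of 2416, a median of 3247 and a highest of 4054 on the marginal arrays, with a log2 difference of 0.38 (SE 0.18). Atp5l, subunit g of the membrane sector, had 6496, 5462, 7743, 6916 and 8627 on transitional 1 to 5, against 3216, 5445 and 6856 as the lowest, median and highest marginal values (log2 difference 0.42, SE 0.21). Both genes overlapped between the classes, with 2 and 3 transitional arrays above the marginal range. Atp5md, a small subunit linked to the pairing of synthases in the membrane, had the highest estimate of all members, 0.80 (SE 0.46). Its signal was 1949, 2382, 5284, 1203 and 3874 on transitional 1 to 5, against 579, 1435 and 2973 as the lowest, median and highest of the marginal arrays, so that its range was wide in both classes.

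**Figure D2:**
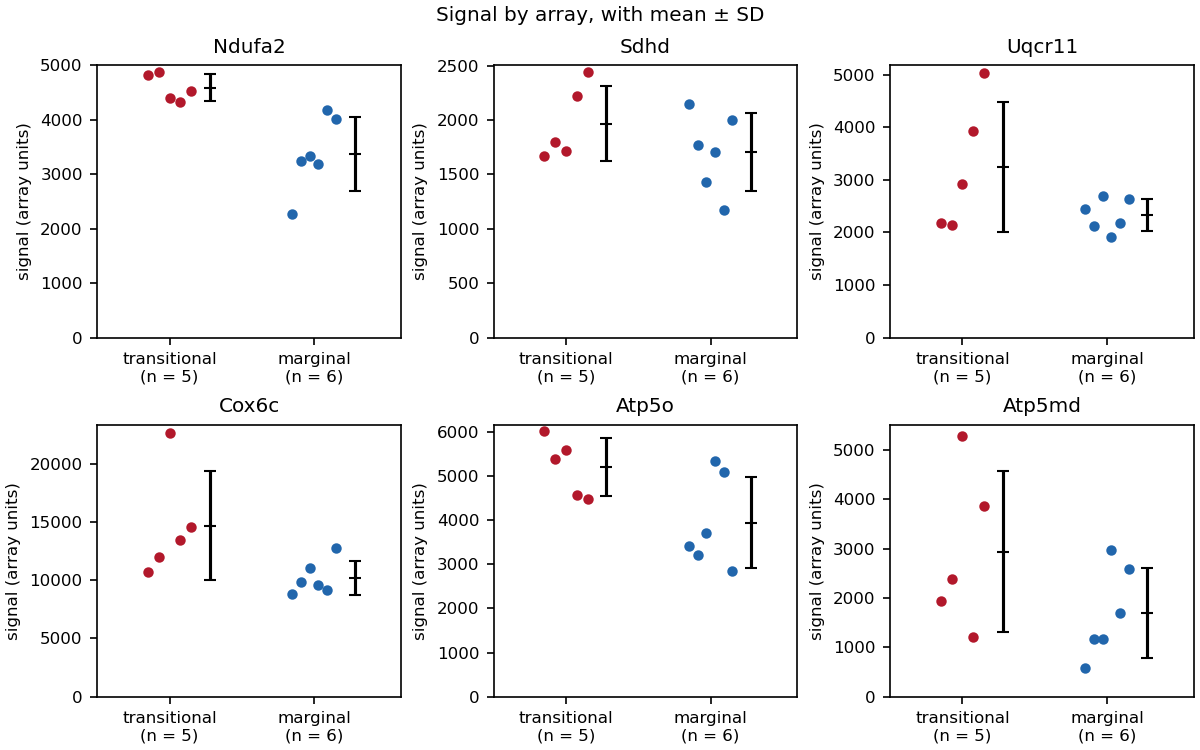
Signal in array units on the vertical axis for 6 subunit genes, with 1 point per array and the mean ± SD beside the points, for transitional (n = 5) and marginal (n = 6) lymphomas. The points of Ndufa2 do not overlap between the classes, and those of the other 5 genes do.

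The direction did not rest on 1 probe set per gene. In all, 41 member genes had 2 or more tested probe sets (101 probe sets), and in 31 of them every probe set had the same direction between classes. Over all 154 probe sets of the rule, 138 were tested and 119 had a higher mean in transitional lymphomas. Probe sets of 1 gene read the same RNA and are not independent of each other. Among the genes that disagreed were Uqcr10, with log2 differences from −0.34 to 0.21, Atp5c1, from −0.44 to 0.07, and Sdha, from −0.06 to 0.07.

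Taken array by array, the members were highest on transitional 5. The deviation of a gene from its own mean over the arrays was used, and its median over the 78 members was −0.08, −0.13, 0.15, 0.18 and 0.38 on transitional 1 to 5, against a lowest of −0.22, middle values of −0.13 and −0.04 and a highest of 0.02 on the marginal arrays. The transitional class was thus divided, with the animals of severe spleen grade (transitional 1 and 2) within the marginal range and the other 3 above it. Genes whose brightest probe set had a mean signal of at least 2000 had medians of 0.02, −0.04, 0.13, −0.06 and 0.07 on transitional 1 to 5. Their marginal medians ran from −0.08 to 0.05, so the members on transitional 3 (0.15) stood near bright genes as a whole. On transitional 5, 71 members (91.0%) were above their own mean, against 41.8% of all tested probe sets, and 34 members had their highest value there (43.6%, against 11.1%). On marginal 1, the array of marginal spleen grade, 20 members had their lowest value (9.5% of all tested probe sets did).

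All 5 complexes were above their means on transitional 5. There the median deviation was 0.36 for complex I, 0.30 for complex II, 0.54 for complex III, 0.30 for complex IV and 0.40 for complex V, while that of all tested probe sets was −0.15. On transitional 4 complex III was at 0.30 and complex I at 0.08, and on transitional 3 complex V was at 0.23 and complex II at −0.03. Complex II was lowest on marginal 5 (−0.39), the array where Sdhb was at 1669. Erythroid markers were high and B cell markers low on both transitional 4 and 5, as given above, and only the erythroid score was set against the members.

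**Figure D3:**
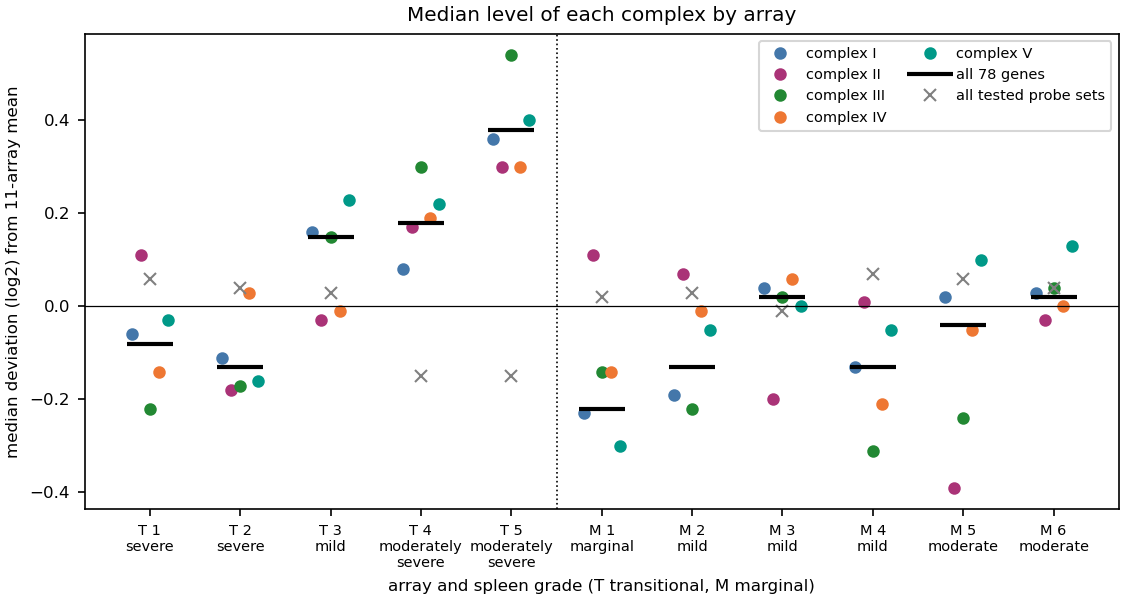
Median deviation (log2) of each complex from the 11-array mean on the vertical axis, by array on the horizontal axis with its spleen grade (T transitional, M marginal). The black bar for all 78 genes stands at 0.38 on transitional 5, while the cross for all tested probe sets is at −0.15 there.

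**Figure D4:**
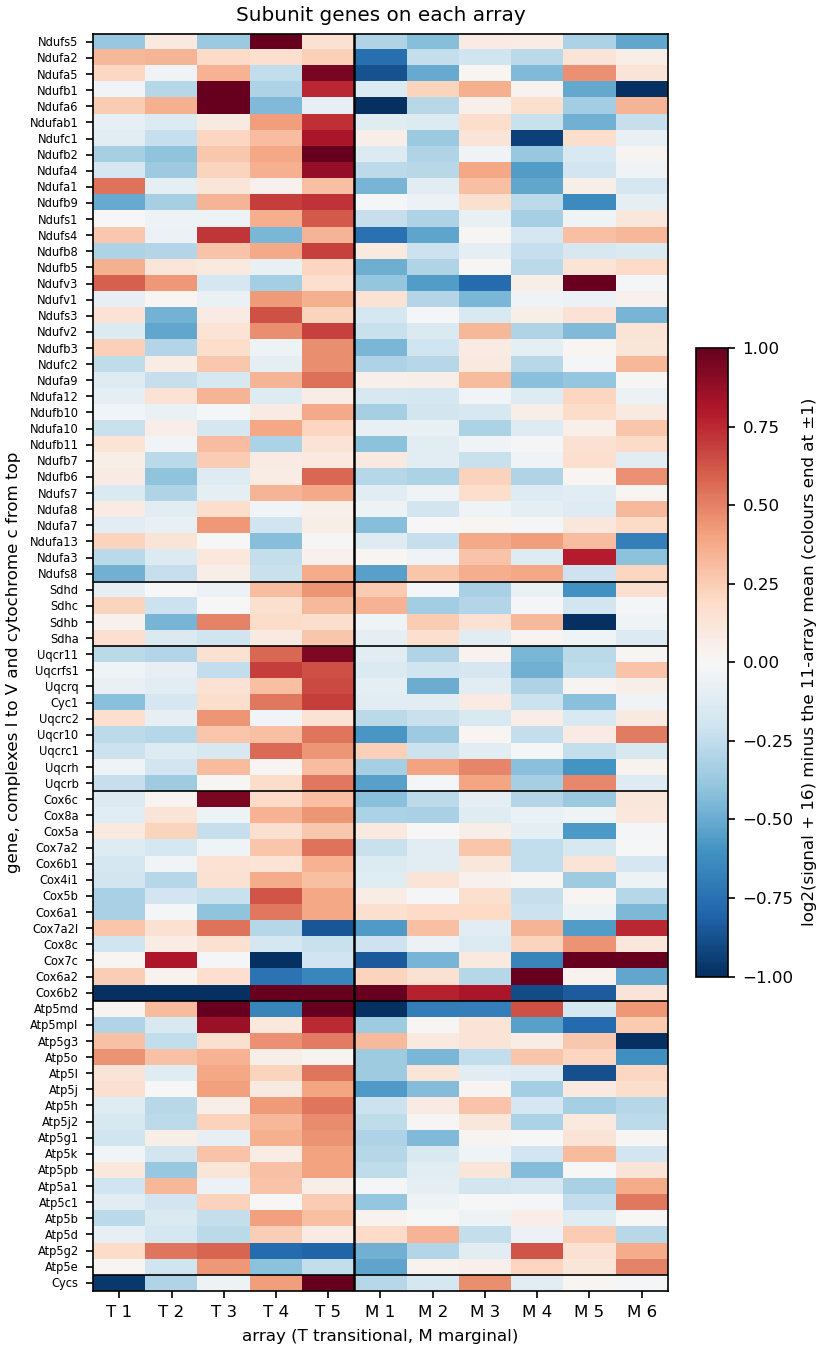
Each tested subunit gene (rows, grouped by complex) on each array (columns, transitional left and marginal right), coloured by log2(signal + 16) minus its mean over the 11 arrays, with colours ending at ±1. Red fills most of the transitional 5 column, where 71 of 78 genes lie above their mean, and Cox6b2 changes from blue to red between arrays of 1 class.

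Spleen grade was tested as a trend over its 5 ranks, from marginal to severe, on the same 11 arrays. No probe set passed (0 of 13576, 0%, with 132 positive and 160 negative at an unadjusted p under 0.05 in limma). The slope was positive in 59 of 78 members, against 45.1% of all tested probe sets, with a median of 0.04 log2 per grade, and 3 members had an unadjusted p under 0.05, all with positive slopes (0.972% of all probe sets were positive and 1.18% negative at that level). Grade runs with class, and with class in the model 31 of 78 members had a positive slope, against 53.4% of all.

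Ndufa2 again had the smallest p among the members. Its signal was 2264 at marginal grade, 3188 to 4393 at mild grade, 4188 and 4008 at moderate grade, 4321 and 4520 at moderately severe grade and 4822 and 4871 at severe grade. Its slope was 0.21 log2 per grade (SE 0.06, unadjusted p = 0.00427) and did not pass after adjustment in limma (adjusted p = 0.9996), and with class in the model it was 0.16 (SE 0.09). Ndufb5, an accessory subunit of complex I, had a slope of 0.14 (SE 0.06). The negative slopes with the smallest p were those of Cox6a2 (−0.15, SE 0.13) and Sdhb (−0.09, SE 0.10).

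The members were then fitted on the erythroid score, one of several marker lists that varied widely between the arrays, in a fit added after the data had been seen. Of the 78 members, 5 passed (6.4%), against 17.7% of all tested probe sets, of which 9.22% were positive and 8.52% negative. The slope was positive in 53 of 78 members, against 39.4% of all. The members called were Cox6b2, Cycs, Cox5b and Cox6a1, with positive slopes, and Atp5g2, with a negative one. Cox7a2l was not called on its brightest probe set (slope −0.17, adjusted p = 0.1135 in limma). Its other tested probe sets were called, with slopes of −0.24 and −0.22 (adjusted p = 0.038 and 0.025 in limma). With class in the model 20 members were called (25.6%, against 32.7% of all), 19 of them positive and 1 negative (12.9% and 19.7% of all). The fit shares its arrays with the class comparison.

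Cox6b2, the testis form of subunit VIb, had by far the widest range of the members, with a highest signal 83.1 times its lowest. Its signal was 91.3, 146, 157, 7589 and 4796 on transitional 1 to 5, against 1947, 1301, 1349, 400, 419 and 828 on marginal 1 to 6. The transitional arrays held both the 3 lowest and the 2 highest values, and the order over the arrays was nearly that of the erythroid score, which was −3.44, −1.73, −1.75, 2.33 and 2.02 on transitional 1 to 5, against 1.37, 0.88, 1.46, −0.59, −0.31 and −0.23 on marginal 1 to 6. No array differed by more than 1 rank between the 2 orders. The slope was 1.07 log2 per unit of the score (SE 0.09, adjusted p = 4.31e-06 in limma), and Cox6b2 was called with each array left out in turn and without transitional 4 and 5 together. Its class difference was −0.49 (SE 1.10).

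The other 4 calls were smaller and did not hold without transitional 4 or without transitional 5, which left Cox6b2 as the only member called. Cycs, whose signals are given above, had a slope of 0.22 (SE 0.06, adjusted p = 0.0201), but its 2 other tested probe sets were not called (adjusted p = 0.242 and 0.328). Cox5b, the zinc-binding subunit of complex IV, had 6349, 6931, 6806, 12282 and 10376 on transitional 1 to 5, against 6522, 7954 and 8871 as the lowest, median and highest of the marginal arrays. Transitional 4 and 5 alone were above the marginal range, and the slope was 0.14 (SE 0.04, adjusted p = 0.0249). Of its 3 other tested probe sets 1 was called (adjusted p = 0.0241) and the others were not (adjusted p = 0.0974 and 0.917).

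Cox6a1, the ubiquitous form of subunit VIa, had 8977, 11098, 8500, 16187 and 14659 on transitional 1 to 5, against a lowest of 8228, a median of 11686 and a highest of 12877 on the marginal arrays (slope 0.15, SE 0.04, adjusted p = 0.0258), and its second probe set was called too (adjusted p = 0.0291). Atp5g2, an isoform gene of the c subunit that forms the rotor ring, ran the other way. It had 6966, 8889, 9184, 3573 and 3500 on transitional 1 to 5, against 4387, 6222 and 9455 as the lowest, median and highest marginal values, so that transitional 4 and 5 were below every other array (slope −0.23, SE 0.06, adjusted p = 0.0168). The myeloid markers (9 of 16 tested) and proliferation markers (12 of 16 tested) also had positive calls on this score and the T cell markers negative ones (8 of 10). Their part in these slopes was not tested.

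**Figure D5:**
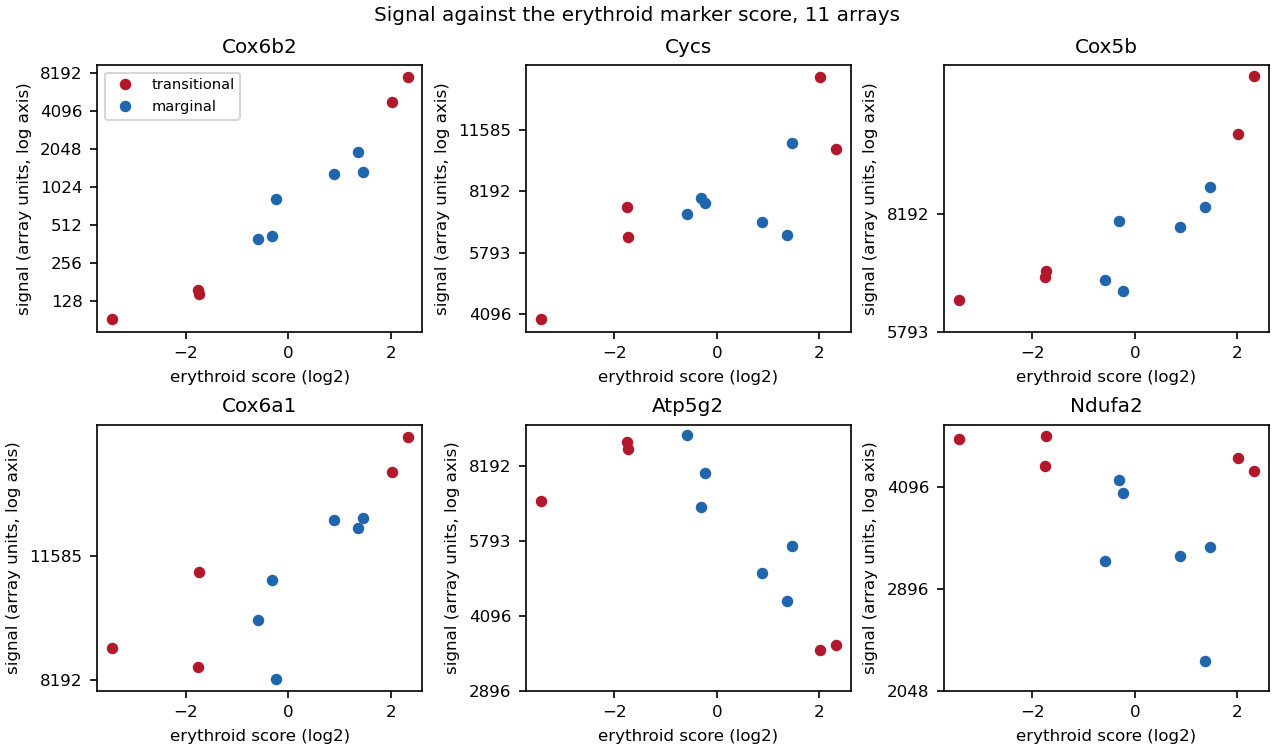
Signal (array units, log axis) of 6 subunit genes against the erythroid score (mean log2 deviation of 15 erythroid markers) on the 11 arrays, transitional in red and marginal in blue. Cox6b2 runs with the score over its whole range, Cycs, Cox5b and Cox6a1 are high on the transitional arrays at the right end, Atp5g2 is low there, and Ndufa2 has no call.

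Promoters were examined for motifs that respiratory genes are known for: NRF1, a regulator of nuclear genes for mitochondria as well as ETS factors such as GABP, YY1 and, for erythroid genes, GATA. NRF1 was searched as GCGCA and GCGC with any 1 base between them. The ETS letters were CCGGAAG. The YY1 letters were AAGATGGC. The GATA letters were AGATAA, and each motif was searched on both strands. RefSeq windows of build GRCm38.p6, from 250 bases before to 50 bases after the start of a gene, were at hand for 66 of the 81 members. NRF1 letters were found in 14 of them (21.2%, against 5.19% of 27025 genes with a window), ETS letters in 17 (25.8%, against 9.93%) and YY1 letters in 9 (13.6%, against 3.19%), and 35 held at least 1 of these. GATA letters were found in 6 (9.1%, against 12.7%). No matches overlapped. Counting genes with a window, NRF1 and ETS letters stood in 6 of 15 of complex V each, and YY1 letters in 6 of 31 of complex I. The genes compared were all those with a window, and were not matched to the members by expression or base composition. A match is a description of the letters and not a site of binding.

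Windows are printed for 3 of the 5 members called on the erythroid score, Cox6b2, Cox6a1 and Atp5g2, and for Atp5j, which shows ETS and YY1 letters in 1 window. All lie on the minus strand and are written 5′ to 3′ with matches in capitals, a capital CTTCCGG being the ETS letters read on the other strand. Positions count from 1 at the gene start, with negative numbers before it. Cox6a1 holds NRF1 letters from −162 and −117 and ETS letters from −16, Atp5g2 holds NRF1 letters from −42, and Atp5j holds YY1 letters from −88 and ETS letters from −61. The Cox6b2 window holds none of the 4 motifs, and neither do those of Cox5b and Cycs.
Cox6b2 (chr7:4753045-4753344, minus strand): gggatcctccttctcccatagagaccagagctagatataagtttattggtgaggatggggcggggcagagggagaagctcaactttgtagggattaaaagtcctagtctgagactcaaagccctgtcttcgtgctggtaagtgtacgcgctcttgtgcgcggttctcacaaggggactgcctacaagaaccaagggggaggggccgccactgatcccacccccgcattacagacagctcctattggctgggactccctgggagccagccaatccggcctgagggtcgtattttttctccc
Cox6a1 (chr5:115348909-115349208, minus strand): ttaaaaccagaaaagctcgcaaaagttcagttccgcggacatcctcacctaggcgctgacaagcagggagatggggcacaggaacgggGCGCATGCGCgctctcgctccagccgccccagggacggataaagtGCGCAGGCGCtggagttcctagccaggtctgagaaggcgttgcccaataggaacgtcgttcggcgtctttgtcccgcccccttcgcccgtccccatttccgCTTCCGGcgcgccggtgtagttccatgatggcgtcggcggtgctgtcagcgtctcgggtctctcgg
Atp5g2 (chr15:102670998-102671297, minus strand): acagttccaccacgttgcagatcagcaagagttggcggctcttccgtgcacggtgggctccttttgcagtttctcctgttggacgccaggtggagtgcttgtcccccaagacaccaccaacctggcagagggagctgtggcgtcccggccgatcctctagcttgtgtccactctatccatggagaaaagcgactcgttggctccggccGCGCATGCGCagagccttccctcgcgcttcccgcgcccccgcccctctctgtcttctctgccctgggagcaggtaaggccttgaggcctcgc
Atp5j (chr16:84834927-84835226, minus strand, the second of 2 windows): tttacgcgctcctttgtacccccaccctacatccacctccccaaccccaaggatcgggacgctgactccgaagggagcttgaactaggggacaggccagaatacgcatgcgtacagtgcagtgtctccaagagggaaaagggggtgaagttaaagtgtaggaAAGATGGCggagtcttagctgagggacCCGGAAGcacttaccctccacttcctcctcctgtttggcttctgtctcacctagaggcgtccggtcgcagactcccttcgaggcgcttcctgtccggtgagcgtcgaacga

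Genes that work with the respiratory chain were compared by lists, none of which had a call between classes (0% of all tested probe sets were called). Of the citric acid cycle and pyruvate dehydrogenase genes, 14 of 17 tested were higher in transitional lymphomas, at a median log2 difference of 0.18, against −0.06 over all tested probe sets. Their mean log2 deviation was −0.05, −0.06, −0.08, 0.28 and 0.30 on transitional 1 to 5, against −0.17 to 0.06 on the marginal arrays. Only transitional 4 and 5 were thus above the marginal range. Dld, the dehydrogenase subunit shared by the oxo-acid complexes, was at 0.43 (SE 0.29) and Sucla2, of succinyl-CoA ligase, at 0.28 (SE 0.21). Of the carriers and import components, 18 of 23 were higher with a median of 0.18. Only transitional 5, at a mean deviation of 0.29, was above the marginal range of −0.14 to 0.18 for this list. Timm17a, of the inner membrane translocase, had 1769, 1642, 1647, 2027 and 2322 on transitional 1 to 5, against 1188 to 1786 on the marginal arrays (log2 difference 0.36, SE 0.17). Slc25a20, the acylcarnitine carrier, was lower at −0.83 (SE 0.35), with 774, 564, 794, 240 and 261 on transitional 1 to 5, against 573 to 1364 on the marginal arrays. It was −0.26 when transitional 4 and 5 were left out, and adjusting for the erythroid score gave an adjusted p of 0.0246 in limma.

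Assembly factors of the complexes were higher in 19 of 32 tested, with a median of 0.07. Cox17, the copper chaperone of complex IV, had 3827, 3677, 4174, 4098 and 5515 on transitional 1 to 5, against a lowest of 2420, a median of 2934 and a highest of 4078 on the marginal arrays (log2 difference 0.48, SE 0.18), and Uqcc2, of complex III, was at 0.33 (SE 0.17). Genes for the upkeep and transcription of mitochondrial DNA were higher in 4 of 12 (median −0.11), with Slirp, which stabilises mitochondrial transcripts, at 0.84 (SE 0.32) and Polrmt, the mitochondrial RNA polymerase, at −0.67 (SE 0.28). Nuclear regulators of respiratory genes were higher in 3 of 10 (median −0.10). Of these, Creb1 had 325, 328, 420, 358 and 312 on transitional 1 to 5, all above the marginal highest of 295, an order that 0.103% of all tested probe sets had (log2 difference 0.52, SE 0.18, but 0.17 as the mean of all its probe sets), and Pprc1, a coactivator of NRF1, was at −0.41 (SE 0.23). Glycolysis genes were divided, with 9 of 17 higher (median 0.02), Ldha at 0.33 (SE 0.19) and Ldhb at −0.89 (SE 0.39). Redox defence genes were higher in 5 of 11 (median −0.02).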

How the data were processed

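Total RNA of 11 lymphomas was hybridised as biotin-labelled cRNA, 1 array per sample, per the labels' protocols. The deposited values are MAS5 intensities, per the submitters' processing notes (version not given in the sources used here), on a linear scale, and were used as deposited. The table held 22690 probe sets. Without its 64 controls, 16 was added before log2, and the upper 60% of 22626 by mean (13576) were tested. Symbols came from GEO's platform annotation, with 20380 probe sets paired with 1 gene, 691 with several and 1555 with none.

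Differences were tested with limma 3.58.1 in R 4.3.3 (lmFit, eBayes with intensity trend, two-sided, Benjamini-Hochberg over 13576), which was also tested on simulated data. There, changes were seeded in probe sets drawn from all those tested, with independent noise. Between classes, 22 of 100 seeded changes of 2-fold and 76 of 100 of 4-fold were recovered, with 4 false calls. The largest fold of a member was 1.74 (Atp5md), and changes below 2-fold were not seeded. Recovery among the members themselves was not simulated, so the lack of a call does not show the lack of a difference. The array number limits precision, and no batch record was used. The labels name no separate animals, so p-values measure the spread between these samples. The same sample numbers in both classes did not mark pairs. The members and gene lists, and the fits, were chosen with earlier results of these data known. The genes named are, per complex, the 4 with the smallest class p (all of complex II, and Cycs), and the 2 smallest per pathway list and per direction of the grade trend. Also named are the tissue isoforms with Cox7a2l, the most and least variable members and those called on the erythroid score, a fit added after the data were seen. Uqcr10, Atp5c1, Cox7c and the redox genes of the closing section were chosen after their values were seen. Alternatives were the offset, filter, scaling, trend, array weights, covariates, subsets of animals, the mean over a gene's probe sets and the fit without each array in turn.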

Additional observations from a re-analysis of the deposited data

Results flagged for a closer look

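In 106 groups of arrays (48 named member and list genes and the medians of the 5 complexes, each in either class), 4 held 1 array far from the others by the gap between neighbours, and chance gives this in about 1 in 20 groups. Ndufs5 stood at 1072 on transitional 4. Cox5a stood at 5030 and Sdhb at 1669 on marginal 5, each below the other marginal arrays, and this array had the highest Gapdh 3′ to 5′ ratio (0.839). Ndufa8 stood at 2770 on marginal 6, above them.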

How the results depend on the processing

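Of 1431 values recomputed under 26 settings for 67 results, 1392 counted as the same, and 11 single-gene estimates reversed. None of the reversed values had passed the limma test. For a gene, the same meant an unchanged direction and side of the threshold. For a count it meant a change within a set ratio, and for a median a shift below the SD between arrays, whatever the sign. The median of all tested probe sets thus counted as the same at −0.06 and, with median scaling, at 0.06. So did the members' class median at 0.20 and, without the animals of moderately severe grade, at 0.05. The 67 and 55 members higher under these 2 fits counted as the same too. Sdha was at −0.02 with array weights and −0.03 without the animals of moderately severe grade. Sdhb was at −0.03 with array weights, −0.11 with only animals that failed to nest and −0.04 without marginal 5. The brightest probe set of Cycs was at −0.30 with array weights, −0.13 with only animals that failed to nest and −0.42 without the animals of moderately severe grade. It was at −0.02 without marginal 1, −0.06 without transitional 4 and −0.21 without transitional 5. With 1 array left out, Sdhb ran from −0.04 to 0.29 and Cycs from −0.21 to 0.28. The cause was not tested.

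Between classes, members higher in transitional lymphomas numbered 55 to 71 over the settings and 63 to 69 with 1 array left out. With the erythroid covariate 255 probe sets were called. Median scaling moved the median of all tested probe sets to 0.06 with 57.9% higher (members 71, median 0.32), and quantile normalization to 0.00 (members 65, median 0.16), against 42.4% with the values as deposited. For the grade trend, 31 members were positive with class as a covariate. On the erythroid score, the class covariate gave 4436 probe sets and 20 members, and quantile normalization 8 members. Without the animals of moderately severe grade 388 probe sets and 1 member were called, 32 members were positive and their median slope was −0.02. Leaving out 1 array gave 921 to 3028 probe sets and 1 to 5 members, with 921 and 1 without transitional 4 and 1209 and 1 without transitional 5. Without transitional 1, Cycs was not called and Ndufa9 was, and without transitional 3 Cox6a1 was not called and Ndufb9 was.

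With the sample number as a replicate block, 0 probe sets were called, and 67 members were higher with a median of 0.20. The deviations of same-numbered samples correlated at −0.45 to −0.09, and none matched its own number best. Dim probe sets near the filter are limited by signal over background.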

Other observations

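Of 11 redox defence genes tested on the erythroid score, 7 had a positive call and the 4 others none, beside 4 positive calls among the 78 respiratory subunits and 9.22% among all tested probe sets. Prdx2, a peroxiredoxin abundant in red cells, had 2288, 3458, 5143, 21238 and 18660 on transitional 1 to 5, against a lowest of 5919, a median of 10262 and a highest of 14070 on the marginal arrays (slope 0.56, SE 0.04, adjusted p = 8.27e-07 in limma). Txnrd2, the mitochondrial thioredoxin reductase, had 111, 259, 264, 2328 and 2201 on transitional 1 to 5, against 328, 493 and 978 as the lowest, median and highest marginal values (slope 0.69, SE 0.07, adjusted p = 2.17e-05). Transitional 4 and 5 were above every marginal array and transitional 1, 2 and 3 below every marginal array for both genes. Cat, Gpx1, Gpx4, Gsr and Prdx3 also had positive calls, with slopes of 0.23, 0.24, 0.31, 0.45 and 0.24. The superoxide dismutases did not pass (Sod1 slope 0.07, adjusted p = 0.297, and Sod2 slope 0.06, adjusted p = 0.546), and the difference between redox genes and subunits was not tested.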
